A study of Homo sapiens with 16 samples.

Results

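The cyclin-dependent kinase (CDK) inhibitor genes are the 3 genes of the CIP/KIP family (CDKN1A, CDKN1B, CDKN1C) and the 4 genes of the INK4 family (CDKN2A, CDKN2B, CDKN2C, CDKN2D). They were selected by family from the 26258 genes of the table, with their levels and changes in these groups already known from earlier results and with no threshold on a value. Their own levels, changes and calls are therefore a description, from which nothing is inferred, and p-values are printed only for other genes. The lists of other genes were also chosen with earlier results known. Many of their genes were named because they were called or changed most, so their p-values are a description too. All 7 passed the filter on low values, which asked for at least 1 CPM in at least 2 libraries and left 15019 genes.

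The libraries, 16 in all, came from Huh7 and Hep3B, cell lines of human hepatocellular carcinoma, with 2 replicates in each of 8 groups. Parental and DMSO cells of both lines carry the label untreated, and what was done to the DMSO cells beyond that is not given in the sources used here. IR cells were made resistant with rising and CR cells with constantly high amounts of Sorafenib, a multi-kinase inhibitor, and both were held in 7 μM of the drug, so that exposure and resistance cannot be told apart. No genotype or added allele was given for any group, and each resistant line is 1 selected population. Where 4 values stand in a row, they belong to IR and CR cells of Huh7 and then to IR and CR cells of Hep3B.

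CDK inhibitors are small proteins that brake the cell cycle. INK4 proteins bind CDK4 and CDK6 and keep them from D-type cyclins, and CIP/KIP proteins bind assembled cyclin-CDK complexes, mainly those of CDK2. Less active CDKs leave the retinoblastoma protein (RB) bound to E2F factors, which holds back the genes of DNA replication.

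Sequencing depth was 46613302 to 76860251 reads per library. CDKN1C rested on as few as 8 and 9 reads in parental Huh7 cells and CDKN2D on 172 and 186, where counting error alone can exceed the difference between the replicates. The SD of the difference between replicates across genes on the log2 scale was highest in the DMSO (0.571) and IR (0.566) cells of Huh7 and ran from 0.236 to 0.310 in the other groups. The labelled liver origin was met in parental cells, in which 8 of 8 hepatocyte markers reached 1 CPM, with a summed level of 10140 to 15130 CPM in Huh7 and 16730 to 20300 CPM in Hep3B. In resistant Huh7 that sum was 105 to 454 CPM in IR and 1364 to 2779 CPM in CR cells, and in resistant Hep3B it was 3538 to 9796 CPM in IR and 1294 to 2093 CPM in CR cells. The DMSO cells were above the parental ones, at 21340 to 24760 CPM in Huh7 and 28350 to 32180 CPM in Hep3B. The 4 immune markers summed to at most 6.77 CPM and the 3 endothelial markers to at most 6.35 CPM in any group, and the 6 fibroblast markers to 297 to 688 CPM in Huh7 and 42.4 to 101 CPM in Hep3B cells. The sums hide markers that went opposite ways. In Huh7, mean COL1A1 and COL1A2 were at 0.79 and 4.77 CPM in parental and 57.5 and 210 CPM in IR cells. PDGFRA and LUM went from 148 and 303 CPM to 2.30 and 40.4 CPM. In Hep3B-IR cells SERPINA1 was at 1606 CPM against 469 CPM in parental cells. HNF4A (187 against 195 CPM) and TTR (41.5 against 38.1 CPM) moved little, and the other hepatocyte markers were lower. The part of these markers in the changes of the members was not tested.

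The sequences around the start sites of CDKN1A and CDKN2B are shown because these members were higher in every resistant library than in every parental library of the line. In a single resistant line such a separation was common. It was met by 47.01% and 43.8% of the 15019 genes in IR and CR cells of Huh7. In IR and CR cells of Hep3B it was met by 42% and 45.85%. The separation therefore served only to choose the sequences. Both windows span 300 bases of the RefSeq entry on GRCh38.p14, 5′ to 3′ on the strand of the gene, at chr6:36678464-36678763 (+) for CDKN1A and at chr9:22009256-22009555 (-) for CDKN2B. Capitals mark the GC box, GGGCGG or its complement on the other strand, the letters bound by SP1 and KLF factors.
CDKN1A: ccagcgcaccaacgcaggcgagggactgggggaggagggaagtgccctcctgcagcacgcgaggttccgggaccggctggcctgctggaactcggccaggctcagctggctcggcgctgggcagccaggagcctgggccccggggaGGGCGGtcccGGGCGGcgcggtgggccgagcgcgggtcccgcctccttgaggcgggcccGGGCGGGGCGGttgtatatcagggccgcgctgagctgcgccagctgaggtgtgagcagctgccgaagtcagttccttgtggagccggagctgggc
CDKN2B: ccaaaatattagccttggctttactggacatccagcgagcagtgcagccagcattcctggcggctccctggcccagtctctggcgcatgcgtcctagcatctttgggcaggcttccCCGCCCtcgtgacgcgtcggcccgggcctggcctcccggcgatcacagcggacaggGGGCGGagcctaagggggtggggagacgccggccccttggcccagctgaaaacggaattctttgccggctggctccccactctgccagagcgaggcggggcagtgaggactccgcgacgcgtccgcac

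The CDKN1A window held 4 GC boxes, of which 2 overlapped, and the CDKN2B window held 2. Both strands were searched, and 45.0% of the 35116 windows of the same length held at least 1. Of the other 7 windows of members, 1 of CDKN1B held 1, 1 of CDKN2D held 3, the CDKN2C windows held 0, 6 and 1, and the CDKN2A windows held 2 at the p16INK4a start and 0 at the p14ARF start. CDKN1C had no entry. The letters ACGTG, a form of the core bound by hypoxia-inducible factors, were in neither window of CDKN1A and CDKN2B. Nor were CACGTG, a form of the E-box that contains them, and TATAAA. Of all windows, 21.4%, 7.3% and 11.5% held these, in the same order. Other forms of that core and of the E-box were not searched. The letters CCGGAA of ETS factors were found 1 time in the CDKN1A window, 0 times in that of CDKN2B and in 17.2% of all windows.

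CDKN1A (gene ID 1026) lies on GRCh37 at chr6:36644237-36655114 on the plus strand and encodes p21, which blocks CDK2 and binds PCNA. Against parental cells it was the member with the largest change in all 4 resistant lines. With DMSO cells as reference, CDKN2B changed more in both resistant Huh7 lines. In Huh7 parental cells the CDKN1A level was 2.44 and 1.03 CPM in replicates 1 and 2, and in Huh7 DMSO cells 2.63 and 27.1 CPM. It was 45.7 and 43.6 CPM in IR and 40.4 and 54.9 CPM in CR cells of the line. All 4 resistant Huh7 libraries lay above all 4 untreated ones, with the second DMSO replicate far above the first. In bulk RNA, a change of the cells that express a gene and a change of RNA per cell cannot be told apart.

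In Hep3B the span was wider. CDKN1A stood at 0.85 and 1.36 CPM in parental cells and at 2.56 and 4.45 CPM in DMSO cells. It reached 299 and 198 CPM in IR and 225 and 138 CPM in CR cells, and no resistant library came near an untreated one. The log2 fold change against parental cells, on the log2(CPM + 1) scale, which understates changes of low genes, was 4.11, 4.18, 6.87 and 6.41, each ± 0.68 (SE, n = 2 and 2). Against the DMSO cells of the line it was 2.17, 2.25, 5.79 and 5.33. Here and below, an SE rests on the spread within all 8 groups of 1 fit. It is therefore not the spread of the compared libraries alone. The order of the group means ran from Hep3B-IR over Hep3B-CR, Huh7-CR, Huh7-IR, Huh7 DMSO and Hep3B DMSO to the parental cells. In that order the neighbours within a line (IR and CR) overlapped, as did the DMSO groups and the parental groups of both lines.

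CDKN2B (gene ID 1030), on the minus strand at chr9:22002902-22009304, encodes p15, an inhibitor of CDK4 and CDK6 that is known for its induction by TGF-beta. In Huh7 the CDKN2B level was 15.5 and 22.2 CPM in parental, 10.0 and 17.8 CPM in DMSO, 97.5 and 82.0 CPM in IR and 82.2 and 79.2 CPM in CR cells. The resistant libraries stood clear of the untreated ones, and the DMSO libraries overlapped the parental ones. In Hep3B it was 9.48 and 15.2 CPM in parental, 26.0 and 27.5 CPM in DMSO, 176 and 131 CPM in IR and 279 and 245 CPM in CR cells. Hep3B-CR libraries were above Hep3B-IR libraries without overlap, and the DMSO libraries were above the parental ones.

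The log2 fold change of CDKN2B against parental cells was 2.21, 2.06, 3.56 and 4.34, each ± 0.27 (SE, n = 2 and 2). With the DMSO cells as reference it was 2.65, 2.5, 2.46 and 3.24. CDKN1A and CDKN2B were the members past the call rule in all 4 resistant lines, and none of the alternatives or left-out libraries ended any of these calls. Pearson's r between their levels over the 16 libraries was 0.923, a description of points that share lines, groups and libraries.

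**Figure D1:**
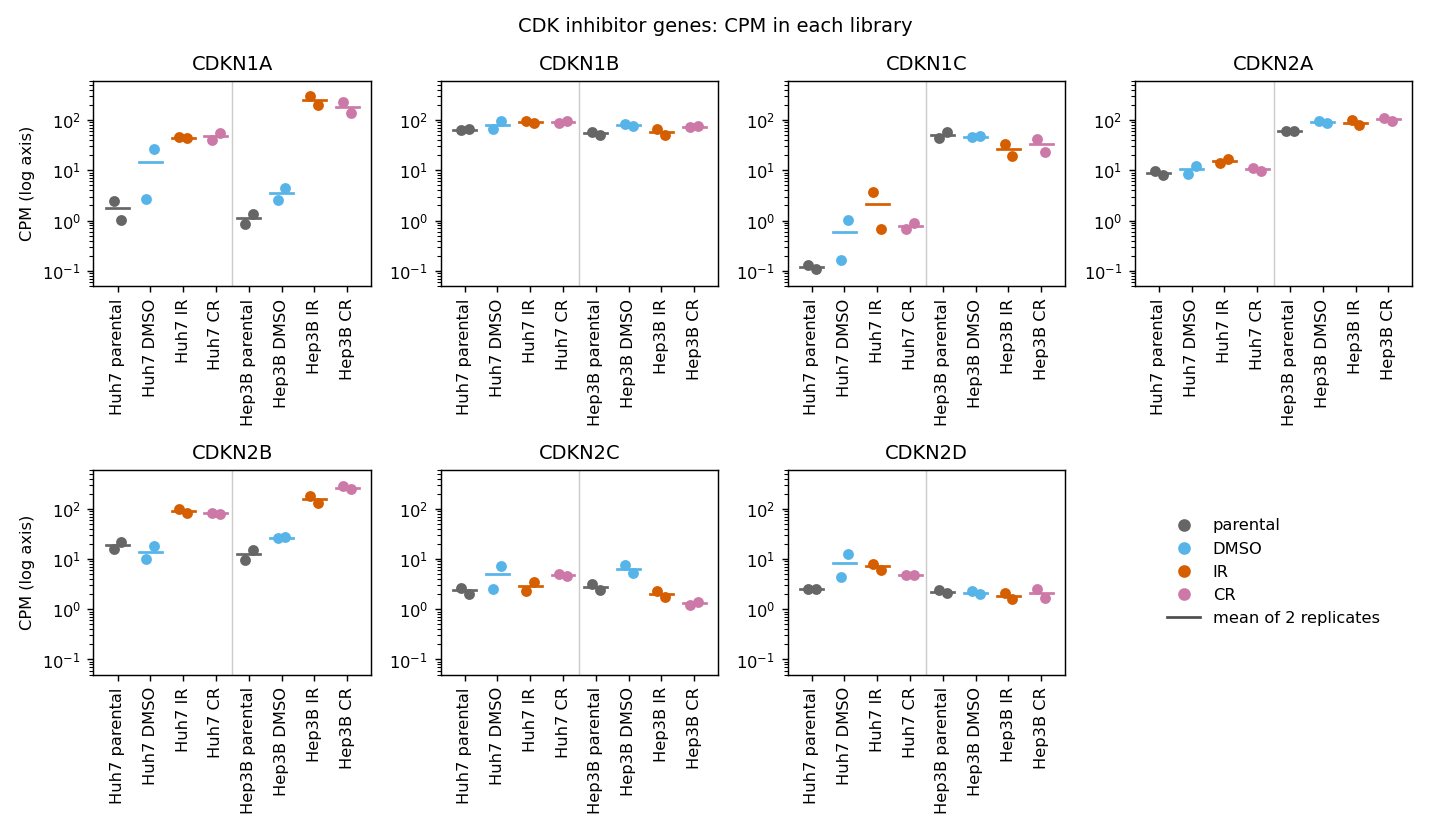
CPM of each CDK inhibitor gene on a log axis in the 8 groups. Points are the 2 replicates of a group and lines are their mean. CDKN1A and CDKN2B stand higher in IR and CR than in parental cells of both lines, and CDKN1C and CDKN2A separate Hep3B from Huh7.

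The 3 remaining members of the INK4 family moved less. CDKN2A (gene ID 1029, minus strand, chr9:21967751-21995300) encodes p16INK4a and, from another first exon, p14ARF, and the deposited value of the gene does not separate them. Its level in Huh7 was 9.82 and 8.12 CPM in parental, 8.40 and 12.5 CPM in DMSO, 13.7 and 17.2 CPM in IR and 11.2 and 9.59 CPM in CR cells. Only the IR libraries of Huh7 lay above all others of the line. Hep3B had 60.7 and 59.8 CPM in parental, 94.1 and 89.4 CPM in DMSO, 99.7 and 79.0 CPM in IR and 111 and 97.3 CPM in CR cells. Each non-parental Hep3B library was above both parental ones, the DMSO libraries included, and those overlapped the IR libraries.

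Against parental cells, CDKN2A differed on the log2 scale by 0.72, 0.20, 0.55 and 0.78, each ± 0.19 (SE, n = 2 and 2). The value in Huh7-IR cells passed the call rule, but it was 0.34 with quantile normalization, 0.54 with TMM factors, 0.54 against DMSO cells and 0.575 with DESeq2, each outside the rule. It was also lost without Huh7 parental replicate 2 (0.60) or Huh7-IR replicate 2 (0.57). The call in Hep3B-CR cells was lost without Hep3B-CR replicate 1 (0.68) and with DMSO cells as reference (0.18). In Hep3B-IR cells a call was made without Hep3B-IR replicate 2 (0.72), and the value was -0.05 against DMSO cells.

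CDKN2C (gene ID 1031, plus strand, chr1:51426417-51440306) encodes p18. Its level in Huh7 was 2.69 and 2.05 CPM in parental, 2.54 and 7.35 CPM in DMSO, 2.35 and 3.48 CPM in IR and 4.96 and 4.62 CPM in CR cells. In Hep3B it was 3.15 and 2.41 CPM in parental, 7.49 and 5.22 CPM in DMSO, 2.35 and 1.73 CPM in IR and 1.23 and 1.39 CPM in CR cells. Hep3B resistant libraries were the lowest of that line, with CR below IR. The log2 fold change against parental cells was 0.21, 0.79, -0.31 and -0.70, each ± 0.33 (SE), and none passed the call rule. Against DMSO cells the value in Huh7-IR cells was -0.49, turned in direction and outside the rule. The value in Hep3B-CR cells passed it with edgeR (-1.20), DESeq2 (-1.215) and quantile normalization (-1.001) and with Hep3B fitted alone (-0.70). With DMSO cells as reference it was -1.26 in IR and -1.655 in CR cells of Hep3B, both past the rule.

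CDKN2D (gene ID 1032, minus strand, chr19:10677136-10679735) encodes p19. In Huh7 its level was 2.5 and 2.49 CPM in parental, 4.37 and 12.4 CPM in DMSO, 8.09 and 6.16 CPM in IR and 4.87 and 4.8 CPM in CR cells. The parental libraries were the lowest, and the DMSO libraries spanned all the resistant ones. In Hep3B all 8 libraries lay between 1.58 and 2.53 CPM. Against parental cells the log2 fold change was 1.21, 0.74, -0.20 and -0.07, each ± 0.33 (SE), of which the first passed the call rule. With DMSO cells as reference the values were -0.073 and -0.54 in IR and CR cells of Huh7, both turned in direction and outside the rule.

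CDKN1B (gene ID 1027, plus strand, chr12:12838432-12875303) encodes p27, which is controlled largely by protein turnover. Its level varied least, from 50.1 to 97.5 CPM over all 16 libraries. In Huh7 it was 64.1 and 65.8 CPM in parental, 65.8 and 95.3 CPM in DMSO, 97.5 and 89.1 CPM in IR and 87.6 and 94.5 CPM in CR cells. Hep3B had 57.6 and 51.6 CPM in parental, 81.9 and 74.8 CPM in DMSO, 66.7 and 50.1 CPM in IR and 71.5 and 76.1 CPM in CR cells. Hep3B-IR libraries overlapped the parental ones, and in the other 3 lines the resistant libraries were above them. The log2 fold change was 0.52, 0.48, 0.08 and 0.43, each ± 0.17 (SE), and none passed the call rule. Against DMSO cells it was 0.23, 0.20, -0.43 and -0.08, outside the rule and turned in direction in Hep3B, where both IR libraries lay below both DMSO libraries.

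CDKN1C (gene ID 1028, minus strand, chr11:2904443-2907005) encodes p57 and is an imprinted gene. It was near the floor in Huh7, where a library with 3 reads would give 0.0393 to 0.0644 CPM. Its level there was 0.13 and 0.11 CPM in parental, 0.17 and 1.01 CPM in DMSO, 3.66 and 0.69 CPM in IR and 0.66 and 0.89 CPM in CR cells. Hep3B had 43.7 and 57.2 CPM in parental, 45.8 and 47.9 CPM in DMSO, 33.6 and 19.4 CPM in IR and 42.6 and 22.8 CPM in CR cells. Resistant libraries were thus above the parental ones in Huh7 and below them in Hep3B, where 1 CR library nearly met the lower parental one.

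The log2 fold change of CDKN1C was 1.33, 0.66, -0.94 and -0.66, each ± 0.44 (SE, n = 2 and 2). The value in Huh7-IR cells passed the call rule and rested on replicate 1, since it was 0.59 without it. The call was also lost without Huh7 parental replicate 1 (1.34) or 2 (1.31), and the value ranged from 0.54 with a pseudocount of 4 CPM to 3.98 with edgeR. Without a filter (1.33) and against DMSO cells (0.88) it was outside the rule too. In Huh7-CR cells edgeR gave 2.60 and DESeq2 2.63, both past the rule. The value in Hep3B-IR cells passed it with a pseudocount of 4 CPM (-0.87) and with Hep3B fitted alone.

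**Figure D2:**
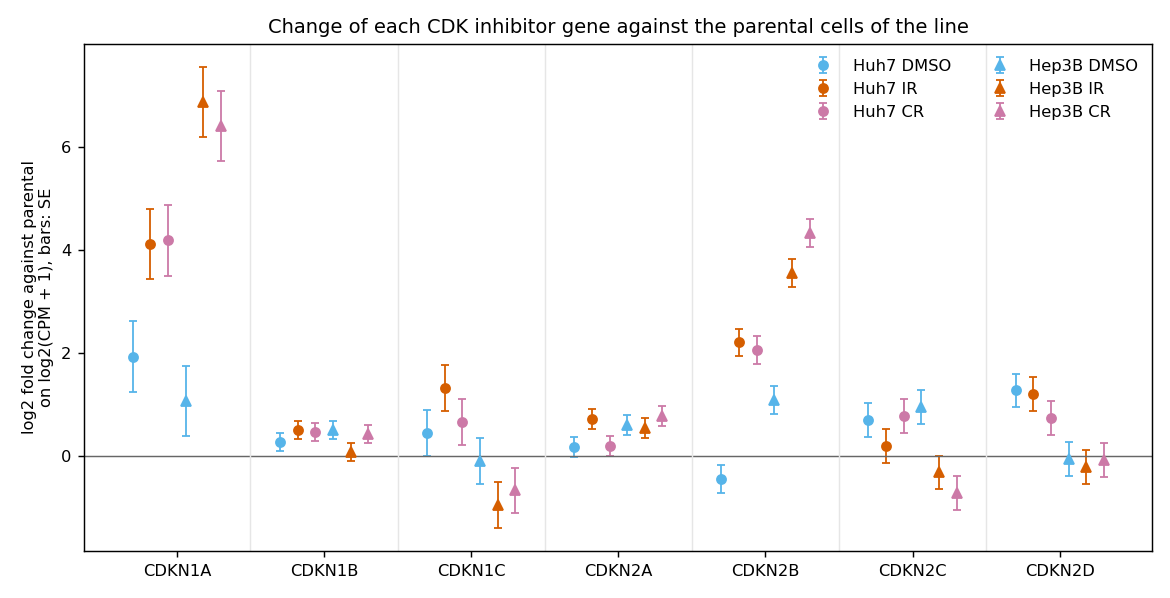
Log2 fold change of each member against the parental cells of its line, on the log2(CPM + 1) scale. Points are estimates from limma and bars are their SE, with Huh7 as circles, Hep3B as triangles, DMSO in blue, IR in orange and CR in pink. CDKN1A and CDKN2B lie at or above 2.06 in all 4 resistant lines, and CDKN1C lies above 0 in resistant Huh7 and below 0 in resistant Hep3B cells.

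The call rule asked for an adjusted p (limma, Benjamini-Hochberg over all genes) under 0.05 and a log2 fold change of 0.58 or more in size. In Huh7-IR cells 5 of the 7 members were called higher, where 31.1% of all genes were, and in Huh7-CR cells 2 of 7, where 20.9% were. In Hep3B-IR cells 2 of 7 were called higher, with 15.7% of all genes, and 3 of 7 in Hep3B-CR cells, with 20%. Since the members were chosen with these values known, nothing is read from the shares. The median change of the members was 1.21, 0.74, 0.08 and 0.43, and that of all genes 0.19, 0.07, 0.06 and 0.11. In Huh7-IR cells the latter shifted to 0.04 when TMM factors were applied, 0.06 by DESeq2, 0.07 by edgeR and 0.0035 by quantile normalization, which also moved it to -0.0038 in Hep3B-CR cells.

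Against parental cells, with a pseudocount of 1 CPM and both lines in 1 fit, limma called 0 of the 7 members lower in the 4 resistant lines, where 17.8%, 13.6%, 11.4% and 12.3% of all genes were, in the same order. At an unadjusted p under 0.05 the count was 0 in each. With edgeR and DESeq2 it was 0 in 3 lines and 1, CDKN2C, in Hep3B-CR cells. Other limma settings called CDKN2C lower in resistant Hep3B cells and CDKN1C lower in Hep3B-IR cells, as given for each gene. With quantile normalization the shares of all genes called were 23.5%, 16.8%, 12.8% and 15.4% higher and 23.7%, 17.3%, 14% and 15.9% lower. In Huh7-IR cells they were 25.6% and 22.8% with TMM factors and 27.9% and 24.4% with DESeq2.

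The DMSO cells show how far untreated cells of a line differed. By limma, CDKN2D was the 1 member called higher in Huh7 DMSO against parental cells (1.28 ± 0.33), where 3.46% of all genes were, with 2 members at an unadjusted p under 0.05, 2 by edgeR and 2 by DESeq2. Without Huh7 DMSO replicate 2 it was 0.62 and not called, and the value of CDKN1A was 0.46 in place of 1.94 ± 0.68. In Hep3B DMSO cells limma called 0 members higher, where 1.07% of all genes were, with 4 at an unadjusted p under 0.05, 0 by edgeR and 1 by DESeq2. The largest values there were 1.09 ± 0.27 for CDKN2B and 1.08 ± 0.68 for CDKN1A.

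IR and CR cells were also compared directly, which leaves out the parental libraries they share. In Huh7, where 13.7% of all genes were called either way, limma called 0 members, with 1 at an unadjusted p under 0.05 and 0 by edgeR and by DESeq2. The same counts were found in Hep3B, where 11.7% of all genes were called. The values farthest from 0 in units of their SE were 0.52 ± 0.19 for CDKN2A in Huh7, higher in IR cells, and -0.78 ± 0.27 for CDKN2B in Hep3B, higher in CR cells.

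Before any resistance the lines differed in CDKN1C, which was lower in parental Huh7 than in parental Hep3B cells by a log2 fold change of -5.51 ± 0.44, and in CDKN2A (-2.62 ± 0.19). These 2 members were called lower, as were 23.7% of all genes. The other 5 members differed between the parental lines by -0.16 to 0.59. Averaged over IR and CR cells, the change was 4.15 in Huh7 and 6.64 in Hep3B for CDKN1A, and 2.13 and 3.95 for CDKN2B. For CDKN1C it was 1.00 in Huh7 and -0.80 in Hep3B. These 3 members were past the call rule for the difference between the lines, as were 29.4% of all genes, and nothing is read from that.

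Levels of different genes can be compared only per length, as CPM per kb of exon of the main transcript. In parental Huh7 cells CDKN1B held 58.5% of the summed level of the 7 genes (46.0 CPM per kb) and CDKN1A 1.78%. In parental Hep3B cells CDKN2A held 51.0% of 121 CPM per kb and CDKN1A 0.43%. The sum was 65.9 CPM per kb in DMSO cells of Huh7 and 169 CPM per kb in those of Hep3B. In the resistant cells it was 108, 101, 291 and 312 CPM per kb. CDKN1A then held 19.5%, 22.4%, 40.3% and 27.5% of it, and CDKN2B held 21.6%, 20.8%, 13.7% and 21.8%. CDKN1B stayed first in every Huh7 group, while in Hep3B the first place was held by CDKN1A in IR and by CDKN2A in the other groups.

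**Figure D3:**
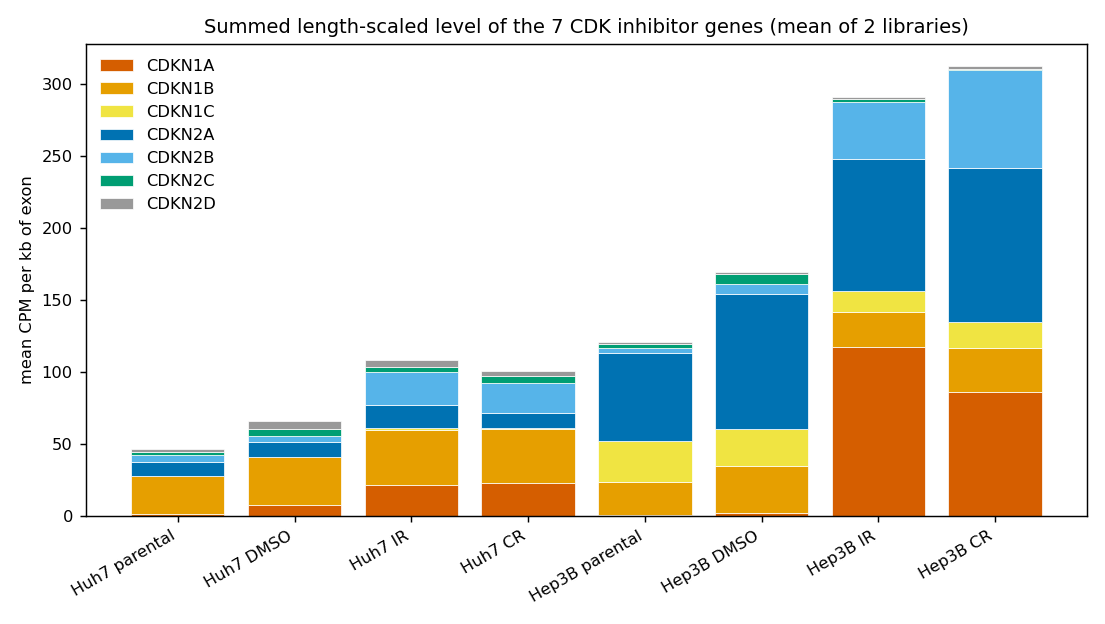
Stacked bars of the mean level of the 7 genes per group, in CPM per kb of exon, each the mean of 2 libraries. The bars of resistant cells reach 108 and 101 in Huh7 and 291 and 312 in Hep3B. Those of Huh7 and Hep3B reach 46.0 and 121 in parental and 65.9 and 169 in DMSO cells. The height added over parental cells is mainly CDKN1A and CDKN2B.

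The kinases and cyclins on which the inhibitors act fell in part. Of 12 cyclin and CDK genes tested, 7, 4, 6 and 7 fell and 2, 1, 1 and 1 rose. Of all genes, 31.1%, 20.9%, 15.7% and 20% rose and 17.8%, 13.6%, 11.4% and 12.3% fell, and the counts of the other lists are to be read against these shares. The median change of the list was -1.29, -0.38, -0.79 and -0.88. CCNB1, CCNA2 and CCNB2, the mitotic and S-phase cyclins, fell in all 4. CCNA2 fell from 194 and 207 CPM in parental Huh7 to 35.4 and 36.1 CPM in IR (limma, adjusted p = 8e-07) and 81.7 and 72.7 CPM in CR cells (adjusted p = 0.000126). In Hep3B, CCNA2 was at 255 and 251 CPM in parental, 103 and 73.8 CPM in IR (adjusted p = 9.31e-05) and 57.2 and 43.1 CPM in CR cells (adjusted p = 3.82e-06). The call of CCNB2 in Huh7-CR cells was lost without Huh7 parental replicate 2 or Huh7-CR replicate 2, with a range over all alternatives of -0.88 to -0.69.

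CDK4, the target of the INK4 proteins, was not called in any resistant line, with changes of 0.11, -0.24, -0.22 and 0.04 ± 0.10 (SE; adjusted p = 0.383, 0.0876, 0.132 and 0.806). With DMSO cells as reference it was called lower in Hep3B-IR cells (-0.71). CDK6, its partner kinase, rose in Huh7-IR (0.85, adjusted p = 0.00312) and fell in both resistant Hep3B lines, by -1.09 in IR (adjusted p = 0.00142) and -1.0 in CR (adjusted p = 0.00209). Both falls were outside the call rule against DMSO cells, at -0.50 and -0.41. In Huh7-CR cells its value was 0.55 (adjusted p = 0.0429, below the fold limit), and it was called against DMSO cells (1.72). CCND1, a D-type cyclin, fell in Hep3B-IR cells (-1.22, adjusted p = 0.000235) and was at -0.19 and 0.56 in IR and CR cells of Huh7 and at -0.40 in Hep3B-CR cells. The value in Huh7-CR cells was called against DMSO cells, with quantile normalization and without Huh7 parental replicate 2 or Huh7-CR replicate 2 (range 0.42 to 0.70). That in Hep3B-CR cells was called against DMSO cells (-0.66).

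Of the 13 pocket proteins and E2F factors, 3, 2, 2 and 0 rose and 3, 2, 1 and 3 fell, near or below the shares of all genes called higher (31.1%, 20.9%, 15.7% and 20%), and mostly near those called lower (17.8%, 13.6%, 11.4% and 12.3%). E2F8, a repressor made in S phase, fell in all 4. It was at 64.55 and 72 CPM in parental, 2.07 and 9.72 CPM in IR and 11.1 and 16.2 CPM in CR cells of Huh7, with adjusted p = 5.11e-05 and 0.00238. In Hep3B it went from 26.0 and 26.4 CPM to 5.47 and 4.58 CPM in IR and 2.20 and 2.82 CPM in CR cells (adjusted p = 0.00394 and 0.000469). E2F2, an activator, fell in Huh7-IR (-1.5, limma, adjusted p = 0.0282) and Hep3B-CR cells (-1.87, adjusted p = 0.0147). The former was lost with edgeR, with no filter, with Huh7 fitted alone and without Huh7-IR replicate 1 or Huh7 parental replicate 1. It ranged from -2.68 to -0.32 over the alternatives. The latter was lost without Hep3B parental replicate 2 or Hep3B-CR replicate 1, with a range of -2.47 to -1.21.

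RB1 was at 81.1 to 159 CPM in the 8 Huh7 libraries and at 2.83 to 6.30 CPM in the 8 Hep3B libraries. It rose in Huh7-IR (0.82, adjusted p = 0.000669) and Hep3B-IR cells (0.72, adjusted p = 0.00359), the latter not with quantile normalization or a pseudocount of 4 CPM (range 0.44 to 0.84).

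TP73, which encodes a transcription factor, rose in both resistant Hep3B lines (1.28 in IR, adjusted p = 0.000151, and 1.16 in CR, adjusted p = 0.000252), from 0.43 and 0.70 CPM in parental cells to 1.93 to 3.14 CPM. Hep3B DMSO cells were already at 1.61 and 1.99 CPM, and with them as reference, or with a pseudocount of 4 CPM, neither was called (lowest 0.44 and 0.32). TP73 was at most 0.0575 CPM in any Huh7 library. TP63 rose in Hep3B-IR cells (1.11, limma, adjusted p = 0.0275). The call was lost against DMSO cells, with a pseudocount of 4 CPM and with no filter. It was also lost without replicate 1 of these cells or either parental replicate, with a range of 0.42 to 3.74. In Huh7-IR cells TP63 was at -0.73 (adjusted p = 0.0892) and was called lower under 6 alternatives, among them without Huh7 parental replicate 1 or either Hep3B-IR replicate (range -1.53 to -0.37).

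The ubiquitin ligase parts that mark p21, p27 and p57 for destruction fell or were not called. Of 10 genes, 6, 2, 5 and 4 fell and 0 rose in any line by limma, with a median of -0.90, -0.20, -0.57 and -0.39. SKP2, the subunit that recognizes p27, was at 576 and 686 CPM in parental Huh7, 56.4 and 91.9 CPM in IR and 118 and 166 CPM in CR cells. Its log2 fold change was -3.11 ± 0.24 in IR (adjusted p = 9.73e-07) and -2.16 ± 0.24 in CR cells (adjusted p = 2.9e-05). In Hep3B, SKP2 was at 286 and 319 CPM in parental, 96.6 and 105 CPM in IR and 89.1 and 90.2 CPM in CR cells, a change of -1.58 ± 0.24 (adjusted p = 0.000439) and -1.74 ± 0.24 (adjusted p = 0.000193). CKS1B, its cofactor, fell in all 4, at -1.41, -0.74, -1.46 and -1.13 ± 0.16. The calls of both genes held under every alternative, and CDKN1B, whose protein they help to remove, was not called in any of these lines.

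Of 23 transcription and Polycomb regulators of the inhibitors, 9, 4, 6 and 7 rose and 3, 0, 2 and 3 fell, with a median of 0.65, 0.20, 0.16 and 0.29. Of all genes 31.1%, 20.9%, 15.7% and 20% were called higher, so that no result about the list is read from its counts. ETS1, an activator of CDKN2A, was at 31.0 and 21.5 CPM in parental, 11.8 and 10.7 CPM in DMSO, 231 and 130 CPM in IR and 144 and 136 CPM in CR cells of Huh7. In Hep3B it was at 0.40 and 0.42 CPM in parental, 1.20 and 1.38 CPM in DMSO, 29.2 and 19.9 CPM in IR and 83.4 and 56.4 CPM in CR cells. Its adjusted p was 9.24e-06, 4.02e-05, 1.01e-06 and 1.06e-07 for log2 fold changes of 2.70, 2.39, 4.15 and 5.62 ± 0.28.

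KLF4, an activator of CDKN1A, rose by 2.28, 1.65, 2.32 and 3.40 ± 0.39 (adjusted p = 0.000335, 0.00478, 0.000762 and 4.58e-05). Without Huh7 parental replicate 2 or Huh7-CR replicate 1 the call in Huh7-CR cells was lost, with a range of 1.29 to 2.01. FOXO3, an activator of CDKN1B, rose by 1.81, 1.23, 0.85 and 0.97 ± 0.25 (adjusted p = 8.51e-05, 0.00226, 0.0227 and 0.0103). Its calls in Hep3B were lost with DMSO cells as reference, for IR also without any 1 Hep3B parental or IR replicate (range 0.50 to 0.93), and for CR without parental replicate 1 or CR replicate 2 (range 0.62 to 1.07).

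Of 16 proliferation genes, 15, 10, 7 and 10 fell and limma called 0 higher in any of the 4 lines, and the median of the list was -1.80, -1.08, -0.97 and -1.29. AURKB, CDC20, TOP2A and PLK1, which act in mitosis, were 4 of the 6 that fell in all 4. AURKB was at 104 and 95.9 CPM in parental Huh7, 16.6 and 38.1 CPM in IR and 26.4 and 35.2 CPM in CR cells (adjusted p = 0.000239 and 0.00117). In Hep3B it was at 78.1 and 86.5 CPM in parental, 35.7 and 22.1 CPM in IR and 19 and 15.3 CPM in CR cells (adjusted p = 0.003 and 0.000223). The call of TOP2A in Huh7-CR cells was lost against DMSO cells and with Huh7 fitted alone. It was also lost without Huh7 parental replicate 2 or either CR replicate (range -1.34 to -0.89). In Hep3B-IR cells it was lost against DMSO cells and without either parental replicate or IR replicate 2 (range -1.56 to -0.92). The call of CDC20 in Hep3B-IR cells was lost without Hep3B parental replicate 2 or IR replicate 2 (range -1.65 to -0.73).

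MKI67, which encodes the proliferation marker Ki-67, was at 387 and 529 CPM in parental Huh7, 50.1 and 180 CPM in IR and 205 and 309 CPM in CR cells. It fell in Huh7-IR cells (-2.24 ± 0.44, adjusted p = 0.000994), was at -0.84 in Huh7-CR cells (adjusted p = 0.148, called without either Huh7-IR replicate, range -1.14 to -0.55) and fell in Hep3B-CR cells (-2.25 ± 0.44, adjusted p = 0.00188). In Hep3B-IR cells it was at -1.27 (limma, adjusted p = 0.044). The call was lost under 15 of 28 alternatives, among them DMSO cells as reference and 12 single libraries left out (range -1.47 to -1.03). In the same 2 Huh7-IR libraries CDKN1A was at 45.7 and 43.6 CPM, and the relation of CDKN1A to MKI67 was not tested.

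The 7 genes associated with senescence did not move as one. Limma called 4, 3, 4 and 4 of them lower and 0, 0, 2 and 2 higher. LMNB1, a nuclear lamina gene, was at -1.98, -1.06, -1.0 and -1.55 ± 0.29 (adjusted p = 0.000122, 0.0116, 0.0202 and 0.00137). HMGB2, a chromatin protein, was at -0.96, -0.61, -1.77 and -2.25 ± 0.15 (adjusted p = 0.000178, 0.0061, 5.26e-06 and 8.81e-07). The calls of both in Huh7-CR cells were lost without Huh7 parental replicate 2, with ranges of -1.18 to -0.87 and -0.87 to -0.51. That of LMNB1 was also lost without Huh7-CR replicate 1 and with Huh7 fitted alone. In Hep3B-IR cells that of LMNB1 was lost against DMSO cells and without any 1 parental or IR replicate (range -1.12 to -0.71).

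**Figure D4:**
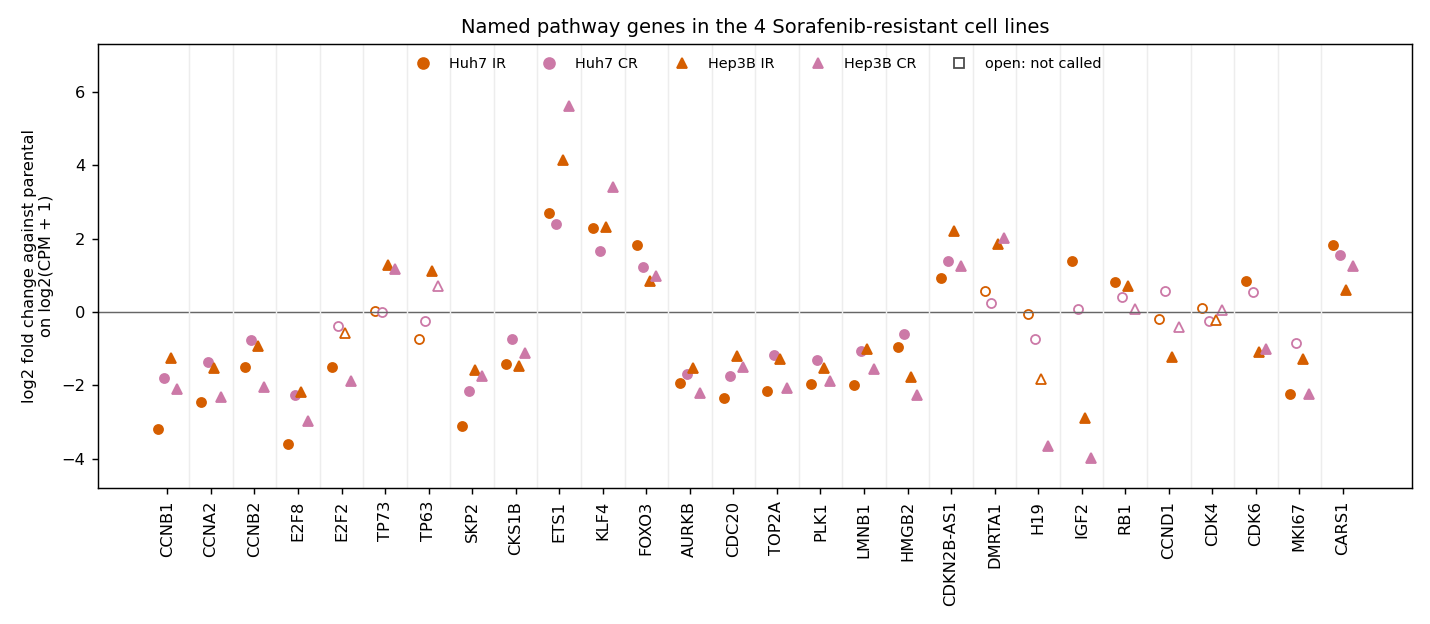
Log2 fold change of named pathway genes against parental cells in the 4 resistant lines, on the log2(CPM + 1) scale. Huh7 is shown as circles and Hep3B as triangles, with IR in orange and CR in pink, and filled points passed the call rule and open points did not. CCNB1, CCNA2, CCNB2, SKP2, CKS1B and mitotic genes lie below 0, ETS1, KLF4 and FOXO3 lie above 0, and CDK4 has open points only.

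CDKN2A and CDKN2B are neighbours, 7602 bases apart, and the antisense RNA CDKN2B-AS1 (ANRIL) overlaps both genes from the other strand while sharing 0 exon bases with them in GENCODE. Whether the counting used strand is not given in the sources used here. CDKN2B-AS1 rose in all 4 lines, by 0.94, 1.39, 2.21 and 1.24 ± 0.21 (adjusted p = 0.00206, 0.000232, 1.14e-05 and 0.000622). For the first of these the call was lost with quantile normalization and with a pseudocount of 4 CPM, and the range was 0.44 to 1.28. Its highest level, 20.7 and 18.2 CPM, was in Hep3B-IR cells, while that of CDKN2B was in Hep3B-CR cells.

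MTAP, the next gene on the side of CDKN2A, was not called in any resistant line (0.19, 0.03, 0.06 and 0.26 ± 0.16, with adjusted p = 0.326, 0.922, 0.828 and 0.215). DMRTA1, 437519 bases from CDKN2B on its other side, rose in both resistant Hep3B lines (1.84 and 2.02, adjusted p = 0.000358 and 0.000161). In Huh7 it was at 0.58 in IR and 0.26 in CR cells (adjusted p = 0.0874 and 0.495), and the former was called against DMSO cells (0.97) and without Huh7-IR replicate 2 (range 0.20 to 0.97). Of the 3 genes of this neighbourhood that passed the filter, 1 was called in each resistant Huh7 line and 2 in each resistant Hep3B line, all higher.

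In the imprinted region of CDKN1C, 9 genes were tested. Of these, 5, 2, 1 and 3 rose and 0, 0, 3 and 3 fell by limma. IGF2, a growth factor gene, was at 1333 and 1777 CPM in parental Hep3B, 146 and 292 CPM in IR (adjusted p = 0.000618) and 108 and 85.3 CPM in CR cells (adjusted p = 5.8e-05). H19, its noncoding neighbour, was at 2647 and 3245 CPM in parental Hep3B cells, 631 and 1083 CPM in IR (adjusted p = 0.166) and 287 and 186 CPM in CR cells (adjusted p = 0.00906). H19 in Hep3B-IR cells (-1.82) was called with Hep3B fitted alone and without either Huh7 DMSO replicate (range -2.46 to -1.44). Its call in Hep3B-CR cells was lost without Hep3B parental replicate 2 or Hep3B-CR replicate 2 (range -4.30 to -3.35). In Huh7-IR cells IGF2 rose (1.38, limma, adjusted p = 0.0235). This call was lost against DMSO cells, with TMM factors, with no filter and with Huh7 fitted alone. It was also lost without Huh7-IR replicate 2 or either parental replicate, with a range of 0.40 to 2.14. CARS1, the 1 gene of this list called in all 4 lines, was chosen after its values were seen and rose by 1.82, 1.56, 0.61 and 1.25 ± 0.16 (adjusted p = 2.32e-06, 1.32e-05, 0.0112 and 9.84e-05). The CARS1 value in Hep3B-IR cells was outside the call rule against DMSO cells, with TMM factors, edgeR and DESeq2 and without Hep3B parental replicate 2 or Hep3B-IR replicate 1 (range 0.47 to 0.75).

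The nearest genes on both sides of the other members that do not overlap them were taken as annotated. This left out GPR19, which overlaps CDKN1B from the other strand with 0 shared exon bases. PANDAR and RAB44 beside CDKN1A were at most 0.0916 and 0.0669 CPM in any library. APOLD1 beside CDKN1B was called higher in all 4 lines (1.00, 1.14, 1.15 and 0.87 ± 0.28, with adjusted p = 0.00945, 0.00688, 0.00854 and 0.0292), while CREBL2 on its other side was called higher in both resistant Hep3B lines (0.86 and 1.04 ± 0.13, adjusted p = 0.000454 and 0.000101). Beside CDKN2D, KRI1 was not called in any line (-0.23, -0.36, -0.25 and -0.11 ± 0.17). AP1M2, on the other side of CDKN2D, fell in both resistant Huh7 lines (-3.94 and -1.83 ± 0.31, adjusted p = 1.14e-06 and 0.000646) and rose in Hep3B-IR cells (1.03, adjusted p = 0.0249). Beside CDKN2C, FAF1 was called in Hep3B-CR cells alone among the 4 (0.61 ± 0.20, adjusted p = 0.032), and beside CDKN1C, PHLDA2 in all but Hep3B-IR cells (1.33, 0.94 and 1.36 ± 0.22, with adjusted p = 0.000317, 0.0052 and 0.000576). The alternatives were not run for the genes of this paragraph.

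The genes whose log2(CPM + 1) pattern over the 16 libraries was most like that of a member were found by Pearson's r among the 15019 genes. For CDKN1A they were SPINT2 (0.962), SEC14L2 (0.961) and SLC2A1 (0.957), of which the last encodes the glucose transporter GLUT1. For CDKN2B they were CEBPB (0.962), BMERB1 (0.959) and LINC01239 (0.953), of which the first encodes the transcription factor C/EBP-beta. For CDKN1C and CDKN2A, whose levels split the lines and had an r of 0.958 with each other, JAG2 (0.988) was among the 3 nearest to the former and TNFSF13 (0.987) was the nearest to the latter. The nearest to CDKN1B was ATP6AP1 (0.915), to CDKN2C CCDC28B (0.821) and to CDKN2D BOC (0.961). The libraries share lines, groups and depth, so these values carry no p and describe likeness of levels only.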

How the data were processed

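RNA of 16 libraries was grouped by sample titles. The authors mapped reads with STAR to hg19, counted unique hits over RefSeq exons with QuasR and deposited CPM, counts divided by the library total. Kit and sequencer differ between labels (stranded mRNA, NextSeq) and methods (stranded total RNA, HiSeq). Whole reads were recovered for 100% of values within 0.05 reads. Entrez IDs of 26111 genes matched a symbol.

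Log2(CPM + 1) was fitted with limma 3.58.1 (R 4.3.3) with a mean-variance trend, 8 groups in one fit, 15019 genes, and tested on simulated data. The methods state biological triplicates, 2 libraries a group were analysed here, and the labels do not name separate cultures, so p-values measure the spread between these samples. Members and lists were chosen with earlier results of these data known. The naming rule took genes called alike in all 4 resistant lines (at most 4 a list), filled up to 2 by the largest mean change, plus RB1, CCND1, CDK4, CDK6 and MKI67, the nearest neighbours and the 3 most alike genes. Of the neighbourhood lists, CDKN2A-DT, SLC22A18 and the older name CARS were not analysed here. Alternatives were edgeR 4.0.16 and DESeq2 1.42.0 on recovered reads, TMM, quantile normalization, pseudocounts of 0.25 and 4 CPM, no filter, 5 CPM, a replicate block, single-line fits, DMSO cells as reference, unadjusted p and each library left out. Leaving out Huh7 DMSO replicate 2 in its own comparison was added after seeing the data. Some genes that the rule names, and a list of genes and sites tied to one of them, are not reported here.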

Additional observations from a re-analysis of the deposited data

Results flagged for a closer look

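Against parental cells, CDKN1C moved in opposite ways in the lines. All 4 resistant Huh7 libraries (0.66 to 3.66 CPM) were above both parental ones, which held 9 and 8 reads. The resistant Huh7 libraries overlapped the Huh7 DMSO libraries, at 0.17 and 1.01 CPM. All 4 resistant Hep3B libraries (19.4 to 42.6 CPM) were below both parental ones, though limma called neither fall (-0.94 and -0.66 ± 0.44). Each of these separations alone was common. Of all genes, 47.01% and 43.8% lay above parental cells in this way in IR and CR cells of Huh7. In IR and CR cells of Hep3B, 31.75% and 30.77% lay below. For CDKN1C the difference of the mean log2 changes, Huh7 minus Hep3B, was 1.80 ± 0.54. It passed limma's call rule for the difference between the lines, but the gene was chosen with its values known, so the call is a description and no p is given. Among other named genes, limma's test of the difference between the lines (Benjamini-Hochberg over all genes) passed for 8. For this difference 29.4% of all genes were called either way, so no result is read from the count. Compared with Hep3B, the mean change in Huh7 was lower by -0.83 for CCNB1 (adjusted p = 0.0265) and by -0.97 for SKP2 (adjusted p = 0.026), both of which fell in all 4 resistant lines. It was lower by -2.34 for ETS1 (adjusted p = 0.000374), which rose in all 4. It was lower by -1.22 for TP73 (adjusted p = 0.000913), -1.41 for TP63 (adjusted p = 0.0243) and -1.51 for DMRTA1 (adjusted p = 0.00511). It was higher by 1.22 for HMGB2 (adjusted p = 0.000422) and by 4.17 for IGF2 (adjusted p = 0.000231). The alternatives were not run for the line differences of these genes. TP73 was at most 0.0575 CPM in any Huh7 library. The rises of TP73 and TP63 in Hep3B-IR cells were not called against DMSO cells.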

How the results depend on the processing

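The calls of CDKN1A and CDKN2B in the 4 resistant lines kept their direction and stayed past the call rule under every alternative run for them. For Huh7-IR cells the 5 members called became 2 with DMSO cells as reference, and 3 to 5 when 1 library was left out, the lowest without Huh7 parental replicate 2. For Huh7-CR cells the 2 members called became 4 at an unadjusted p, and 2 to 4 when 1 library was left out, the highest without Huh7 DMSO replicate 1 or 2. With DMSO cells as reference, CDKN2D in Huh7-IR cells, a called value, reversed (-0.073), and of the values not called CDKN2D in Huh7-CR (-0.54), CDKN2C in Huh7-IR (-0.49), CDKN2A in Hep3B-IR (-0.05) and CDKN1B in IR and CR cells of Hep3B (-0.43 and -0.08) turned in direction too. So did CDKN2C in Huh7-IR (-0.34) and CDKN2A in Huh7-CR cells (-0.06) with quantile normalization, and CDKN1B in Hep3B-IR cells without Hep3B-IR replicate 1 (-0.12). The causes were not tested. The 71, 38, 51 and 58 pathway genes called stayed within 1.5 times. Of all genes 48.8%, 34.5%, 27.1% and 32.2% were called either way, and no result is read from the counts. Replicate numbers give no shared culture, and the correlation of replicate differences between groups ran from -0.220 to 0.439. With the replicate block, 5, 2, 2 and 3 members and 70, 39, 53 and 58 pathway genes were called. With 2 libraries a group, the SE of 0.17 to 0.68 limits what can be seen of the weaker members.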
